A study of Mus musculus with 2 samples.

Results

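Very long genes were taken as the autosomal genes whose deposited span, end minus start, was at least 500000 bases, leaving out symbols that start with Cdh, Pcdh, Slc, Dnaj, Arhgap or Fbxl. This gave 139 of the 17817 genes in the table, and 3 autosomal genes as long were left out by their symbols. The study sequenced RNA of mouse embryonic stem cells (mESCs), 1 wild-type line and 1 with Setd2 knocked out. These are pluripotent cells of the early embryo kept in culture. Both lines were of the mixed strain 129SV/C57BL/6, at passages 10 to 12, and both were grown on feeder cells that were then removed by plating on gelatin. The labels give no other allele or agent for either line, and the sources used here do not say how Setd2 was disrupted. Each genotype had 1 library, so every value below describes these 2 libraries, no p-value was computed, and a genotype cannot be told apart from a line or a culture. Paired values are written with the wild-type library first and the knockout library after it.

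Setd2 encodes a methyltransferase that travels with elongating RNA polymerase II and trimethylates lysine 36 of histone H3 over the bodies of transcribed genes. The mark is known for keeping transcription from starting inside genes and for its ties to splicing. Very long genes consist almost entirely of introns and take far longer to transcribe than other genes. Many encode synaptic adhesion proteins, ion channels and other proteins of neurons, and several host common fragile sites, regions that break when replication is slowed.

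Over all genes the libraries came to 56129838 (wild type) and 52041677 (knockout) read equivalents, where a read equivalent is 76 sequenced bases over a gene. Levels are counts per 1000000 of these (CPM), with no scaling for length, so 1 CPM stood for 56.1 and 52.0 read equivalents. Setd2 itself stood at 452 and 174 CPM, 38.5% of wild type (95% counting interval 37.6 to 39.4%). Intervals cover counting error only, since reads are not independent molecules. Pluripotency markers summed to 4048 and 3566 CPM over 10 genes, of which 8 were lower in the knockout library. The transcription factor gene Zfp42 had the lowest fold, at 283 and 68.1 CPM. It lies on chromosome 8, and 55% of its windows are shared with other places in the genome. Pou5f1, also among the 8, was at 558 and 544 CPM, 97.6% of wild type. The 2 higher ones were Nanog, at 221 and 310 CPM, and Dppa5a, at 458 and 584 CPM. Of their windows 40% and 80% are shared. The choice of markers to name was made with their levels already known. The part of these marker differences in the members' values was not tested.

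The 139 genes lay on all 19 autosomes, 71 on the plus and 68 on the minus strand. Their median span was 689 kb, against 17.5 kb for the 16957 shorter autosomal genes, and 29 spanned at least 1000 kb. A GENCODE gene model was found for 136 of them, and 4 of these models spanned under 500 kb. By these models the median very long gene had 7.97 kb of exons in 18 exons, a largest intron of 217 kb, and exons over 1.06% of its span. Shorter genes had a median of 3.26 kb of exons, over 17.9% of the span. The neural adhesion gene Cntnap2 (chromosome 6, 45010060 to 47251370, mm9) was the longest protein-coding member at 2241 kb, with a largest intron of 594 kb. The longest row of all, Igk at 3171 kb, is the immunoglobulin kappa light chain locus, a cluster of gene segments. The span threshold fell between Kcnip4 at 500054 bases and Ank3 at 493728 bases, with Kcnip4 at 1.19 and 1.66 CPM and Ank3, which is no member, at 65.8 and 89.9 CPM.

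Fewer very long genes than shorter genes reached 1 CPM in these cells. Of the 139, 67 (48.2%) averaged 1 CPM or more in the 2 libraries, against 12945 (76.3%) of the shorter genes. Below that floor were 72 members, 28 of them below 0.1 CPM. Of these, Nlgn1, which encodes the synaptic adhesion protein neuroligin 1, and Mdga2, which encodes a neuroligin-binding protein, were listed at 0 in both libraries (Nlgn1 and Mdga2 were named after their values were seen). All 6 neurotransmitter receptor genes lay below 1 CPM, among them the glutamate receptor gene Grm8, at 0.267 and 0.796 CPM (Grm8 was named after its values were seen). A count of 0 allows up to 0.0534 (wild type) and 0.0576 CPM (knockout), for counting error only.

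Per kilobase of exon, the median level of members above the floor was 0.718 CPM, against 7.40 CPM for shorter genes above it. The highest included genes of cell contacts and trafficking. Ptprk, a receptor-type tyrosine phosphatase of cell contacts (chromosome 10, 27794626 to 28317203), stood at 29.8 and 28.1 CPM per kilobase. Exoc4, a subunit of the exocyst that tethers secretory vesicles to the plasma membrane, stood at 20.4 and 26.0. Etl4 followed at 16.1 and 19.7, and Dock1, an activator of the GTPase Rac, at 16.4 and 17.2. By contrast Lrp1b, an endocytic receptor gene of 2057 kb, stood at 0.201 and 0.158 CPM per kilobase.

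Very long genes with next to no reads held more CpG upstream of their deposited start than shorter genes as low. CpG dinucleotides, a C followed by a G, are depleted over most of the mouse genome and retained in the CpG islands of many promoters. The 250 bases before the start of each gene were read from NCBIM37, the assembly of mm9, and the letters CG, which read the same on both strands, were counted. At least 1 CG was present in 137 of 139 members and in 96.5% of all 17748 windows of this length. Against the number that base composition predicts, the median CpG ratio of the 28 members below 0.1 CPM was 0.64, with quartiles of 0.53 and 0.78, against 0.22 (0.11 and 0.40) for the 1812 shorter genes as low. A ratio of at least 0.6 was found in 53.6% of the former and 12.3% of the latter. Shorter genes of 100 to 500 kb below 0.1 CPM lay between, at a median of 0.46. The gap was smaller at higher levels, with medians of 0.66 and 0.36 from 0.1 to 1 CPM, 0.66 and 0.54 from 1 to 5 CPM, and 0.75 and 0.75 at 5 CPM or more, members first. The ratio describes the sequence and was not tested against the levels. The 5 windows below show the range, with every CG in capitals. They come from the 44 members whose start lies within 100 bases of the GENCODE start and whose window holds no annotated exon. The medians above were taken without this check, so many of their windows may not lie at a promoter. They were not recomputed on the genes that pass it. Ptprk has the highest CPM of these, Ptprn2 and Tmem132d have the highest and lowest fold among those above the floor, and Gpc5 and Nrg3 are the longest below 0.1 CPM.
Ptprk (chr10:27794376-27794625, plus strand): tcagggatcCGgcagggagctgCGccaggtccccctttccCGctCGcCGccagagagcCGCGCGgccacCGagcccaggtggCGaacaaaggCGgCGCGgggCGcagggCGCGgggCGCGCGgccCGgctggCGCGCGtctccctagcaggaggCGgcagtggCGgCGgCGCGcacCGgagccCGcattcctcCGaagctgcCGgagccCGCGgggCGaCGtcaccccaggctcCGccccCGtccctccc
Ptprn2 (chr12:117723943-117724192, plus strand): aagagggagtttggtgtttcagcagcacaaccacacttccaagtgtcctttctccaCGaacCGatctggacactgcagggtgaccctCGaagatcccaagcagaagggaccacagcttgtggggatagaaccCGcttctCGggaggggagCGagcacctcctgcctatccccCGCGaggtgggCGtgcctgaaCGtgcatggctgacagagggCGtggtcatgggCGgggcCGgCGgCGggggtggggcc
Tmem132d (chr5:128938938-128939187, minus strand): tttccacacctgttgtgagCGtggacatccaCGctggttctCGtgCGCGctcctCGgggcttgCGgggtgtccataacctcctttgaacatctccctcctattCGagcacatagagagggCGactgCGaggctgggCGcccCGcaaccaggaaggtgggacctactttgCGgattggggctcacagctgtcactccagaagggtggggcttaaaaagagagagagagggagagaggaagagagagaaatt
Gpc5 (chr14:115491187-115491436, plus strand): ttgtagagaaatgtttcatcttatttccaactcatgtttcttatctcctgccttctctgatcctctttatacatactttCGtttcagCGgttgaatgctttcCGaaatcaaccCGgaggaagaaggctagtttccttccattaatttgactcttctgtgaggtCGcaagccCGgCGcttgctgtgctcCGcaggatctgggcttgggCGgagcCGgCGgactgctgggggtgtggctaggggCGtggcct
Nrg3 (chr14:40286377-40286626, minus strand): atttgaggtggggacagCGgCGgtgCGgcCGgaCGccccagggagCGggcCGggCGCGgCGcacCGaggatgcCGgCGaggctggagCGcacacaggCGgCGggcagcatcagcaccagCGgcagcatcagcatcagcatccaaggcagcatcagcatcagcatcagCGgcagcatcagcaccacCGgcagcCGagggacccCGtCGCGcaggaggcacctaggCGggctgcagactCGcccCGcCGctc
The window of Ptprk held 38 CG in 250 bases. That of Nrg3, named here for its window, a ligand gene of the ErbB4 receptor with 1 and 0 read equivalents, held 27, more than the 15 of Ptprn2 at 0.952 and 3.21 CPM. Gpc5, a glypican gene at 0.0356 and 0.135 CPM, held 12, and Tmem132d held 13.

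**Figure D1:**
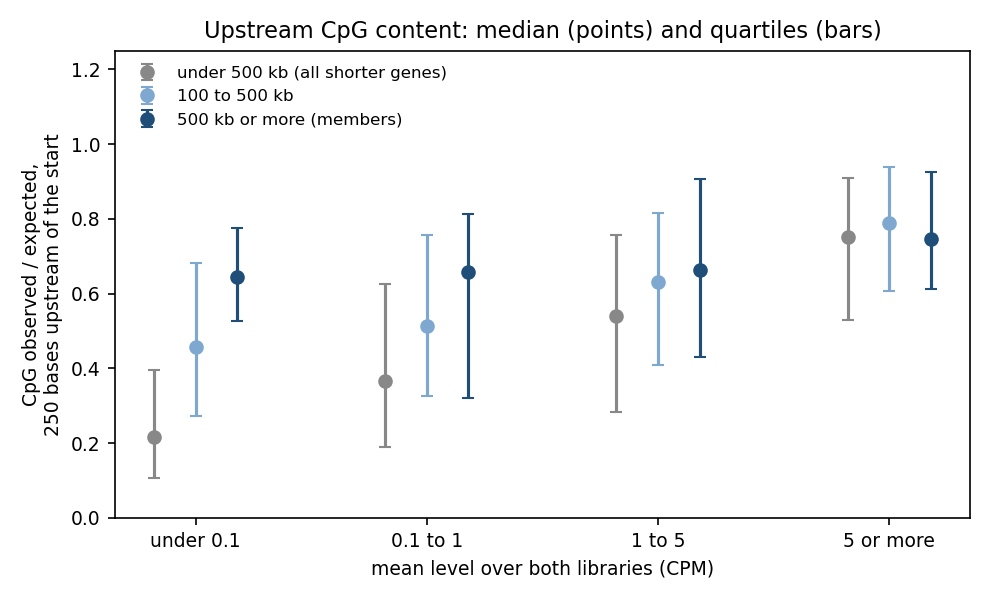
CpG observed over expected in the 250 bases upstream of the deposited gene start (vertical axis) by mean level over both libraries in CPM (horizontal axis). Points are medians over genes and bars run between the quartiles. Below 0.1 CPM the 28 members have a median of 0.64, against 0.22 for shorter genes, while at 5 CPM or more both medians are 0.75.

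Members kept nearly the same order of level in both libraries, with a Spearman correlation of 0.95 over the 139 genes, which share the same library preparations and depth. Summed over all members they made up 0.200% of the wild-type and 0.213% of the knockout library. The low members, however, tended to stand higher in the knockout library. Of the 137 members above 0 in at least 1 library, 100 had the higher CPM in the knockout library, where 56.0% of all 17463 genes above 0 did. The levels chosen below as bands, and the span classes, were set after the values had been seen.

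**Figure D2:**
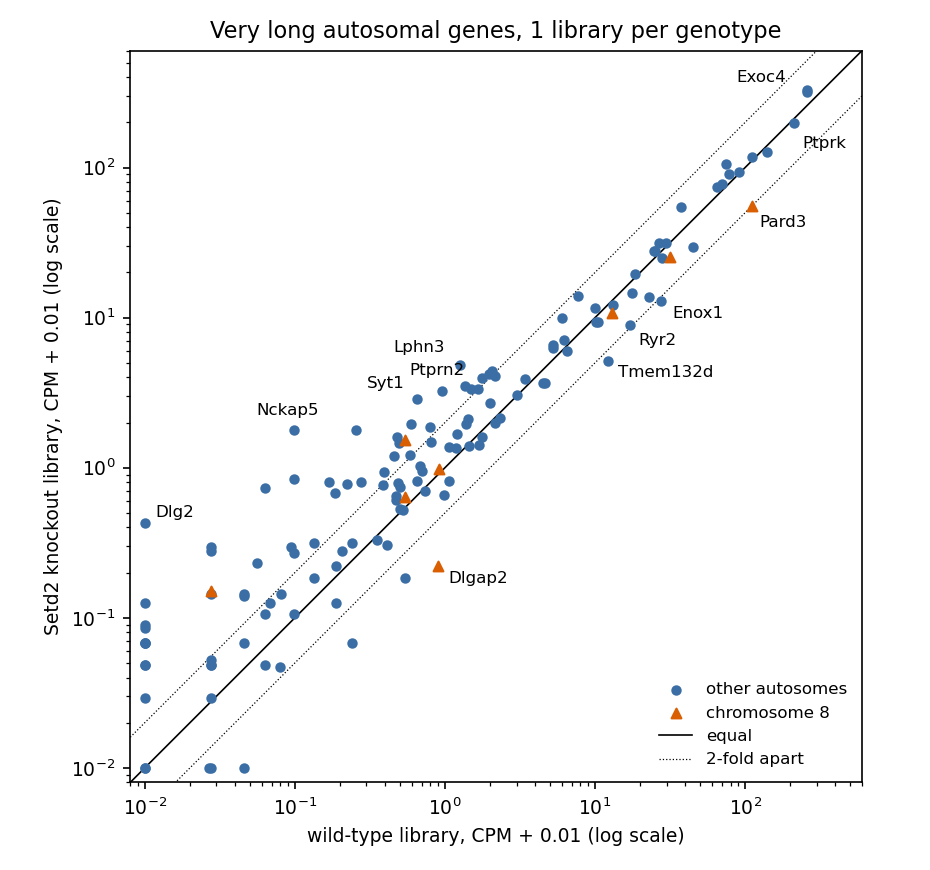
CPM of each of the 139 very long genes in the wild-type library (horizontal axis) and the Setd2 knockout library (vertical axis), both on log scales after adding 0.01 so that genes listed at 0 can be drawn. The solid line marks equal levels and the dotted lines levels 2-fold apart, and triangles are the 8 members on chromosome 8. Members at 5 CPM or more lie near the solid line, with Enox1 and Tmem132d beyond the lower dotted line, and most members at lower levels lie above the solid line.

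Of the 101 members above 0 and below 5 CPM, 80 (79.2%) were higher in the knockout library. Among shorter genes weighted to the same levels the share was 54.4%. The share was alike in every band below 5 CPM, with 21 of 26 members below 0.1 CPM, 35 of 44 from 0.1 to 1 CPM and 24 of 31 from 1 to 5 CPM. Summed over the 101 genes, the level was 68.5 and 110 CPM (3845 and 5719 read equivalents), 1.6-fold higher in the knockout library, against 1.05-fold for the 6205 shorter genes below 5 CPM. At 5 CPM or more, 20 of 36 members were higher in the knockout library, where 55.8% of shorter genes were. Their summed levels were 1.05-fold apart. Within this range the members differed by level. From 5 to 20 CPM 7 of 16 members were higher in the knockout library, with summed levels of 182 and 165 CPM. In that band 55.9% of all shorter genes were higher, and 66.7% of those of 100 to 500 kb. At 20 CPM or more 13 of 20 members were higher, where 55.8% of shorter genes were.

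**Figure D3:**
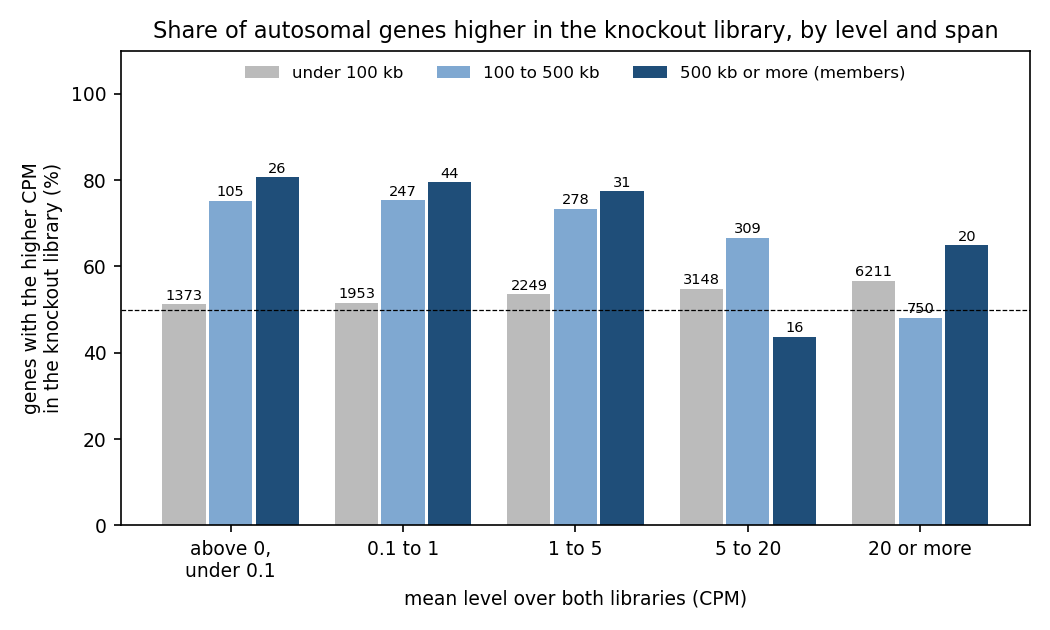
Share of autosomal genes with the higher CPM in the knockout library (vertical axis, percent) by mean level over both libraries (horizontal axis, CPM). Bars are span classes, with the number of genes above each, and the dashed line marks 50%. Below 5 CPM the members stand between 77.4% and 80.8%, genes of 100 to 500 kb between 73.4% and 75.2% and genes under 100 kb between 51.3% and 53.6%.

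The members and the genes of 200 to 500 kb stood alike in this. From 0.1 to 5 CPM, where 56.0% of all 5033 genes were higher in the knockout library, the share was 49.7% of 2867 autosomal genes under 20 kb, 57.4% from 20 to 50 kb, 62.8% from 50 to 100 kb, 69.6% from 100 to 200 kb and 80.6% of 222 genes from 200 to 500 kb. For the 75 members at this level it was 78.7%, with a median log2 fold of 0.37, against 0.40 from 200 to 500 kb and 0.00 under 20 kb. Exon length, which differs with span, was then held within limits. Of genes with at least 6 kb of exons, 50.8% of 65 were higher in the knockout library when the span was under 20 kb, 58.2% of 201 from 20 to 100 kb, 78.4% of 227 from 100 to 500 kb and 76% of 50 members. With 4 to 6 kb of exons the shares were 47.4%, 53.8%, 72.6% and 92.3% (12 of 13 members). Few members had shorter exons, and of these 5 of 5 with 2 to 4 kb and 2 of 4 with under 2 kb were higher in the knockout library. Over 4 classes of exon length the share ran from 47.4% to 50.8% for genes under 20 kb and from 53.8% to 60.9% for genes of 20 to 100 kb. These shares are descriptions across genes of 1 pair of libraries, and genes are not replicates. The sources used here do not say whether intronic bases were counted, so the level of a gene that is mostly intron may include them, also where it is given per kilobase of exon.

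**Figure D4:**
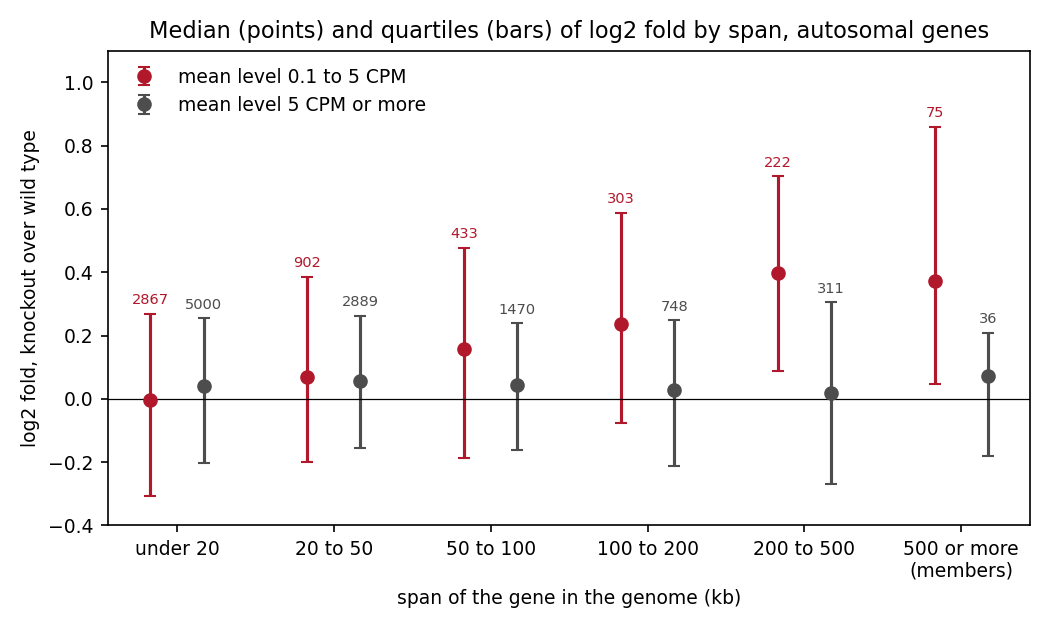
Log2 fold of the knockout over the wild-type library (vertical axis) by genomic span in kb (horizontal axis), for autosomal genes at 0.1 to 5 CPM and at 5 CPM or more. Points are medians over genes, bars run between the quartiles, and the number of genes stands above each bar. At 0.1 to 5 CPM the median goes from 0.00 under 20 kb to 0.40 at 200 to 500 kb and 0.37 for the members, and at 5 CPM or more it stays between 0.02 and 0.07.

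Folds of single genes are given as log2((knockout CPM + 0.5)/(wild-type CPM + 0.5)), which understates those of low genes. Over the 67 members above the floor of 1 CPM the median log2 fold was 0.18, with quartiles of -0.10 and 0.65, against 0.05 over all 13523 genes and 0.05 over shorter genes weighted to the same levels. Of the 67, 44 (65.7%) had the higher CPM in the knockout library, where 56.4% of all genes did. At 2-fold or more, 7 of 67 (10.4%) were higher in the knockout library, where 1.76% of all genes were, and 2.80% of shorter genes at matched level. At least 2-fold lower were 2 of 67 (2.99%), near the 2.11% of all genes. The higher count rests on the floor. Of the 67, 8 passed it only through the knockout library and 0 only through the wild-type library, and 5 of the 7 were below 1 CPM in the wild type, so they had to differ to be counted. With at least 1 CPM asked of each library, 2 of 59 members were at least 2-fold higher, and with a floor of 5 CPM 0 of 36 were.

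Synaptic scaffolds, vesicle release factors and sorting receptors had a median log2 fold of 0.83 over the 8 of 12 members above the floor, of which 2 were at least 2-fold higher and 0 lower. Those 2, Syt1 and Cadps2, reached the floor by their knockout values alone, and the median of the other 6 was 0.52. Syt1, which encodes the calcium sensor of synaptic vesicle release, was at 0.637 and 2.87 CPM, a ratio of 4.51 (95% counting interval 3.11 to 6.66). Cadps2, a priming factor of dense-core vesicles, was at 0.247 and 1.77 CPM, a ratio of 7.18 (4.02 to 13.5). The scaffold gene Anks1b was at 1.48 and 3.33 CPM and Magi2 at 1.64 and 3.34 CPM, each with the higher value in the knockout library. Dlg2, a postsynaptic scaffold gene, was listed at 0 and had 21.7 read equivalents after knockout. With the wild type set at 3 counts this was 7.79-fold higher, which leaves out the counting error of the knockout value. Magi1, a tight junction scaffold gene with the highest level of the group per kilobase of exon, was at 78.3 and 90.4 CPM.

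Neural cell adhesion genes and synapse organisers had 7 of 21 members above the floor, with a median of 0.16, 2 at least 2-fold higher and 0 lower. Over the 5 members with 1 CPM or more in each library the median was -0.10. The highest log2 fold of all 67 members, 1.62 with the pseudocount, was that of Lphn3, an adhesion receptor of synapses also called latrophilin 3 (chromosome 5, 81450618 to 82224755), at 1.24 and 4.85 CPM, a ratio of 3.91 (2.97 to 5.14). Ctnna2, which encodes the alpha-catenin of neurons, was at 0.587 and 1.94 CPM, a ratio of 3.30 (2.21 to 5.05). The 2 members of the group at 5 CPM or more did not share this direction. Odz4, also called teneurin 4, was at 44.6 and 29.4 CPM, 65.9% of wild type (61.8 to 70.3%), and Cntnap2 at 10.1 and 9.36 CPM, 92.8% (82.0 to 105%).

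Ion channel genes and their partners had a median of 0.35 over 5 of 16 members. Of these 0 lay beyond 2-fold, where 96.1% of all genes lay within it. Over the 4 with 1 CPM or more in each library, which leaves out Kcnma1, the median was 0.245. The potassium channel gene Kcnma1, at 0.795 and 1.48 CPM, and the channel partner genes Kcnip4, at 1.19 and 1.66 CPM, and Dpp6, at 1.42 and 2.11 CPM, had the higher value in the knockout library, although the counting interval of Kcnip4 included 1. Ryr2, the calcium release channel of heart muscle and the group's highest per kilobase of exon, went the other way, at 17.1 and 8.97 CPM, 52.3% of wild type (46.7 to 58.5%). Of guidance receptors and growth factor genes 2 of 8 passed the floor. The netrin receptor gene Unc5d was at 0.534 and 1.52 CPM, a ratio of 2.84 (1.84 to 4.48), and the guidance ligand gene Slit3 at 6.45 and 6.03 CPM. Unc5d reached the floor by its knockout value alone.

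The receptor-type tyrosine phosphatases were the only group with every member above the floor, 6 of 6, and held 2 of the 7 genes at least 2-fold higher. Ptprn2, a phosphatase family protein of dense-core vesicles whose window is printed above, was at 0.952 and 3.21 CPM, a ratio of 3.37 (2.48 to 4.72). It reached the floor by its knockout value alone. Ptprt was at 1.35 and 3.48 CPM, 2.57 (1.95 to 3.40). The 2 members at 5 CPM or more, Ptprk at 211 and 199 CPM and Ptprg at 70.0 and 78.1 CPM, stood at 94.5% and 112% of wild type. Of signalling enzymes 8 of 10 passed, with a median of 0.14. The diacylglycerol kinase gene Dgkb was at 1.94 and 4.22 CPM, 2.17 (1.72 to 2.76), and the cell cycle-related kinase gene Cdk14 at 5.97 and 9.94 CPM, while the cAMP phosphodiesterase gene Pde4d was at 23.0 and 13.6 CPM, 59.3% (54.0 to 65.0%).

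Matrix, secreted and glycan-building proteins had a median of 0.20 over 7 of 16 members, and of 0.05 over the 6 with 1 CPM or more in each library. Nell1, a secreted factor of bone formation, was at 0.470 and 1.596 CPM, 3.39 (2.19 to 5.57), and the glypican gene Gpc6 at 2.15 and 4.05 CPM, while Lrp1b was at 4.66 and 3.66 CPM and Large at 31.7 and 25.3 CPM. Transcription, RNA and DNA proteins had a median of 0.07 over 6 of 12, with Camta1 at 37.6 and 54.4 CPM, 1.45 (1.37 to 1.53), Sox6 at 1.97 and 2.67 CPM and Auts2 at 17.7 and 14.6 CPM. Neither group held a gene 2-fold lower or more.

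Cytoskeleton and polarity genes had a median of 0.35 over 6 of 9. Pkhd1, the gene mutated in recessive polycystic kidney disease, was at 2.06 and 4.43 CPM, 2.15 (1.71 to 2.71), and the focal adhesion gene Lpp at 74.1 and 106 CPM, 1.43 (1.37 to 1.48). Pard3, which encodes a core protein of cell polarity, was lower, at 110 and 55.6 CPM, 50.4% of wild type (48.2 to 52.7%). Trafficking, metabolism and protein turnover genes had a median of -0.06 over 8 of 13. Exoc4 was at 258 and 328 CPM, 1.27 (1.24 to 1.30), Vps13b, a Golgi protein gene, at 140 and 126 CPM, and Enox1, a gene of cell-surface electron transport, at 27.7 and 12.8 CPM, 46.3% (42.3 to 50.8%). Enox1 and Tmem132d, a transmembrane protein gene at 12.1 and 5.16 CPM or 42.6% (36.9 to 49.2%), were the 2 members 2-fold lower or more, and both lay at 5 CPM or more in each library.

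**Figure D5:**
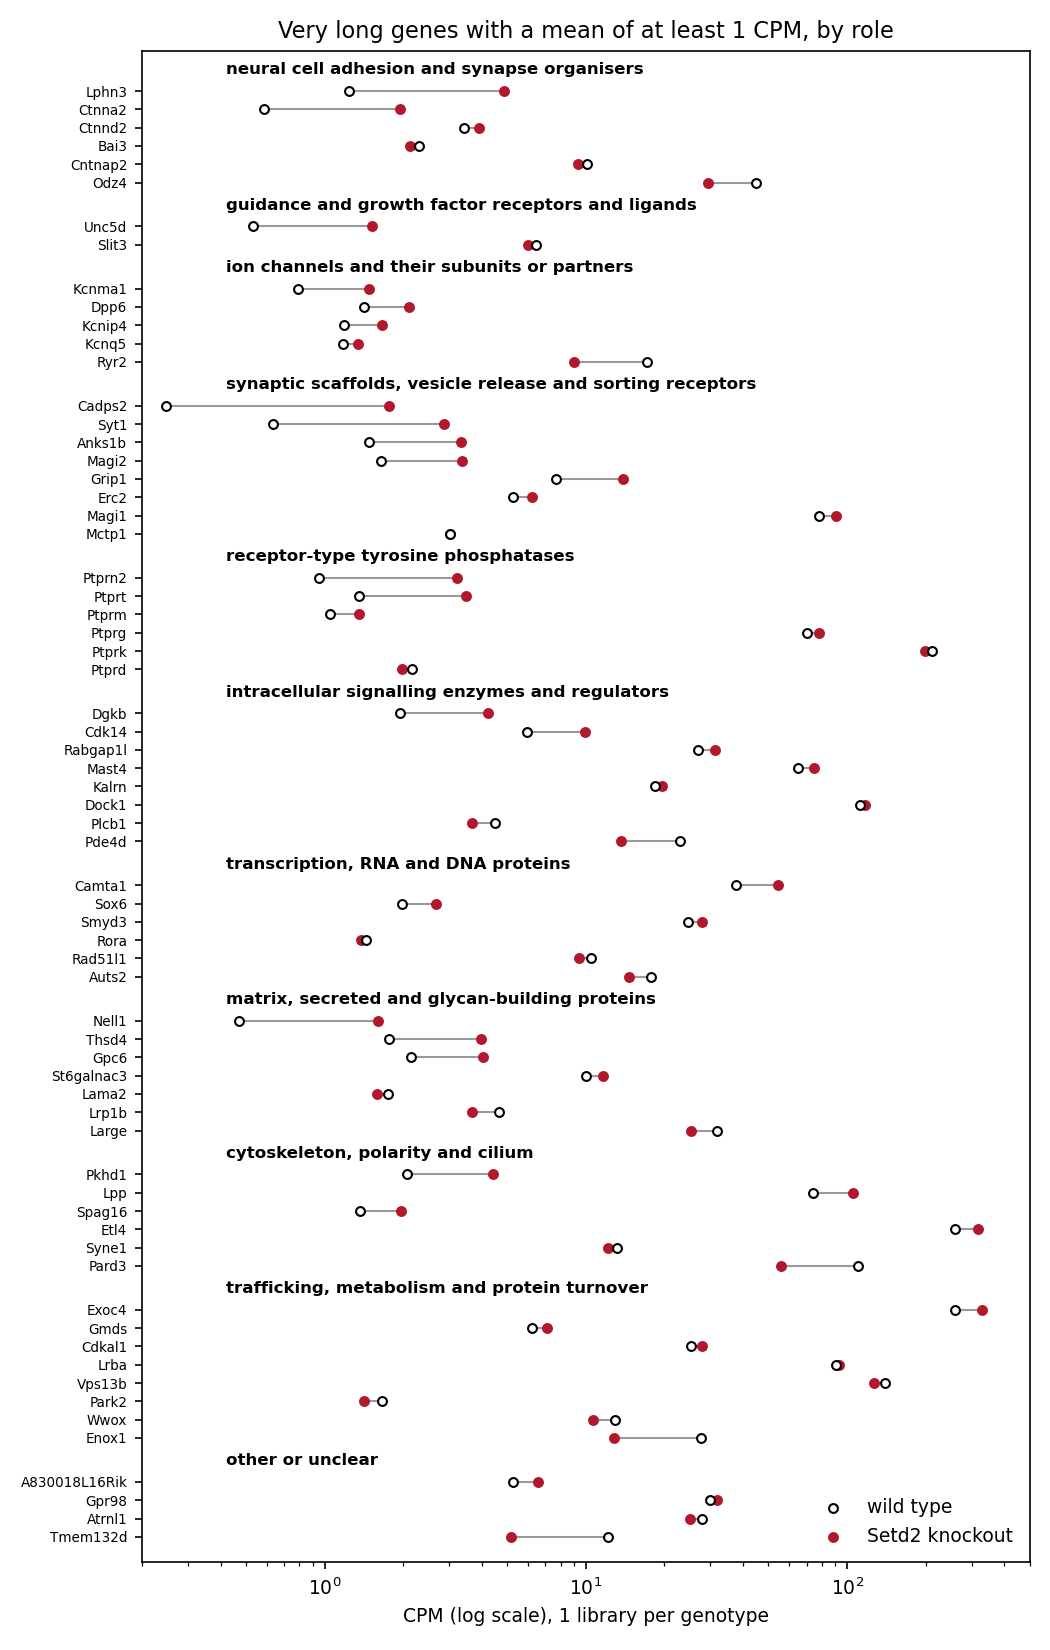
CPM on a log scale (horizontal axis) of the very long genes that averaged 1 CPM or more, with 1 of the 67 not drawn, in the wild-type library (open circles) and the Setd2 knockout library (filled circles), grouped by role. Cadps2, Syt1, Lphn3 and Nell1 show the widest steps toward the knockout library, and Enox1 and Tmem132d the widest toward the wild-type library.

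The adhesion, guidance, ion channel, neurotransmitter receptor and synaptic scaffold groups were taken as 1 set, called neural by symbol alone. The set also holds genes described above by other tissues, such as Ryr2 and Magi1, both at 5 CPM or more. Above 0 and below 5 CPM, 46 of 54 of its members (85.2%) were higher in the knockout library. In the other groups it was 34 of 47 (72.3%). This difference was not tested. Markers of neurons and neural progenitors, none of them a member, were higher in the knockout library in part. Of the 10 found, 7 were higher in the knockout library. Over all genes above 0 this share was 56.0%, to be set beside each marker count here. Their summed level was 167 and 185 CPM, of which Stmn2 was the largest part at 82.5 and 96.8 CPM. The growth cone gene Gap43 was at 5.33 and 9.24 CPM, and the migration gene Dcx was listed at 0 and had 3 read equivalents after knockout. Tubb3, on chromosome 8, was lower at 35.6 and 17.6 CPM. Fibroblast markers, standing for feeder cells, summed to 125 and 100 CPM over 12 genes, with 2 higher in the knockout library and the matrix gene Lum listed at 0 there. Primitive endoderm markers summed to 123 and 31.9 CPM over 8 genes, with 0 higher. These marker genes were picked out with their values in view. The part of other cell types in the members' values was not tested, and in RNA from whole cultures more cells of a type and more RNA per cell cannot be told apart.

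Chromosome 8 carried 8 members and was lower as a whole in the knockout library, with a median log2 fold of -0.35 over its 719 genes above the floor. Its 4 members above the floor, Pard3, Large, Wwox and Unc5d, had a median of -0.29. Pard3, Large and Wwox were at -0.98, -0.32 and -0.27. Unc5d was the one above 0, but it reached the floor by its knockout value alone, so it had to be higher to be counted. Without chromosome 8 the share of low members higher in the knockout library was 79.2% of 96, and the median over members above the floor 0.20. The log2 fold of Pard3 was -0.98, and the part of its chromosome in this was not tested. Enox1 on chromosome 14, Tmem132d on chromosome 5 and Ryr2 and Pde4d on chromosome 13 lie on chromosomes with medians between 0.04 and 0.12.

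Of the members, 15 are on the list of 20 genes used here for common fragile sites, and what follows covers these alone. Of the 9 that averaged 1 CPM or more, 2 were higher in the knockout library, where 56.4% of all genes at that level were, and without Large and Wwox on chromosome 8 it was 2 of 7. The 6 at lower levels were higher in the knockout library, as were 79.2% of all members below 5 CPM. On the log2 scale with the pseudocount 0 of the 9 lay beyond 2-fold, where 96.1% of all genes lay within it. Wwox, an oxidoreductase gene, was at 12.9 and 10.7 CPM, 82.5% of wild type (73.7 to 92.2%), and Park2, which encodes the ubiquitin ligase parkin, at 1.67 and 1.41 CPM, 84.8% (62.4 to 118%). Fhit, a nucleotide hydrolase gene of 1612 kb, was listed at 0 and had 6 read equivalents after knockout. Magi2 was the highest of the 9, at a log2 fold of 0.85 and a ratio without the pseudocount of 2.04 (1.58 to 2.66), and Rora and Cntnap2 had intervals that included 1.

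Of 31 listed topoisomerases, elongation factors and other genes known to bear on the transcription of long genes 30 were found, all above the floor. Their median log2 fold was 0.17, against 0.05 over all genes, and 22 (73.3%) were higher in the knockout library, against 56.4% of all genes. None, a count of 0, lay beyond 2-fold, where 96.1% of all genes lay within it. The topoisomerase genes Top1, Top2a and Top2b, which relieve the twist that builds up ahead of the polymerase, stood at 114%, 113% and 109% of wild type. Cdk12, a kinase of the elongating polymerase, was the lowest, at 200 and 125 CPM, 62.6% (60.7 to 64.5%). The elongation factor genes Ell2 and Ell3 were higher, at 148% and 158%, Ell on chromosome 8 was at 70.2%, and Ccnk, the cyclin of Cdk12, at 137% (the topoisomerase genes and Ccnk were named after their values were seen).

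Few members overlapped another gene whose reads could be counted with theirs. Of the 139, 130 overlapped no other row of the table. Of the 94 such members above 0 and below 5 CPM, 76 (80.9%) were higher in the knockout library. The 9 genes lying wholly within a member included Cstf2t, a polyadenylation factor gene inside Prkg1, at 114 and 128 CPM, and Trim32, a ubiquitin ligase gene inside Astn2, at 40.3 and 45.7 CPM (the nested genes and their hosts were named after their values were seen). Of these 9, 3 averaged 1 CPM or more. Windows shared with other places in the genome made up at least 20% in 4 members, among them Gmds, an enzyme of fucose synthesis, at 6.21 and 7.09 CPM, and Igk, at 0.578 and 1.20 CPM, whose levels are uncertain (Gmds was named after its values were seen).

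Below the floor of 1 CPM, 3 more members had log2 folds of at least 1 (all named after their values were seen). They were 3 of the 44 members from 0.1 to 1 CPM. At that level 45 of 2200 shorter genes had such folds, among them 11 of 247 genes of 100 to 500 kb. Nckap5, which encodes a microtubule-associated protein, had 5 and 92.9 read equivalents, a ratio of 20.04 (8.30 to 63.2). The potassium channel gene Kcnd2 had 5 and 43.5, and the transcription factor gene Foxp2 had 3 and 37.9, a ratio of 13.6 (4.33 to 69.2). The lowest was Dlgap2, a postsynaptic scaffold gene on chromosome 8, with 50.1 and 11 read equivalents, a ratio of 0.237 (0.111 to 0.462), whose log2 fold was -0.97 with the pseudocount. It was followed by the glutamate receptor gene Grid1, with 29.9 and 9 read equivalents, 0.324 (0.135 to 0.699), and the teneurin gene Odz2, with 13 and 3, 0.249 (0.0455 to 0.906). These 3 were also named after their values were seen.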

How the data were processed

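RNA of 1 wild-type and 1 Setd2 knockout mESC line was sequenced; each column was taken to its library by its name and genotype label. CASAVA 1.6.0, TopHat 1.0.13 and mm9 are named in the submitters' processing notes, with no role. The deposited header names RPKM, which the values do not bear out; they were read as log2(x + 1), with x in deposited read equivalents, because x times 76 was whole, to 0.05, for 85.9% (wild type) and 85.7% (knockout) of rows with x above 0 and under 200. The sources used here do not say whether intronic bases or strand were used.

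Here x was scaled to CPM by the library total over 17827 rows, and a symbol on several rows took the highest. Levels of shorter genes were matched by weighting 10 quantile bins of mean CPM. Ratios carry exact conditional binomial 95% intervals. GENCODE models of NCBIM37 matched 94.6% of rows. For shared reads, 20 exon windows per gene were aligned with minimap2 2.31, allowing 2 mismatches. The procedure was tested on simulated data. Python 3.11.15, numpy 2.4.6 and pandas 2.3.3 were used.

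The members, the fragile site, marker and elongation lists and the rule for naming genes (the 10 highest and 10 lowest folds, the 10 highest by CPM and per kilobase, the 10 longest, 3 per role, all fragile site members, 4 on each side of the span threshold, 4 of the elongation list) were chosen with earlier results of these data known. Roles were assigned by symbol. With 1 library per group no test was possible. Some members are counted in the summaries but not reported by name here.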

Additional observations from a re-analysis of the deposited data

How the results depend on the processing

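No paired analysis was possible because each genotype has 1 library, and no library could be left out. Asking for 1 CPM in each library, asking for a long GENCODE model, and all settings for the share of low members were added after the data were seen. Of 64 recomputed summaries 47 stayed close to the reported values. The number of members at least 2-fold higher, 7 as reported, was 13 with a pseudocount of 0.1 CPM, 4 with 1 CPM, 0 with a floor of 5 CPM and 2 with 1 CPM in each library. A threshold of 1.5-fold gave 18 higher and 6 lower, and one of 3-fold gave 2 higher and 0 lower. At spans of at least 750 kb the median was 0.49, 0.43 above matched shorter genes, with 0 lower; at 1000 kb the median was 0.78, 0.72 above, with 2 higher and 0 lower. The longer members are also the less abundant ones. The median stayed above 0 in every setting run, between 0.07 (floor of 5 CPM) and 0.78, and the rescalings shifted all folds by -0.03 to -0.06. The share of members above the floor, 48.2%, was 79.9% at 0.1 CPM and 25.9% at 5 CPM. The share of members under 5 CPM that were higher in the knockout library stayed between 77.2% and 80.9%, and 23.6 to 26.5 percentage points above matched shorter genes. Of 370 recomputed folds of named genes 356 stayed within their counting interval and 0 of those called 2-fold apart changed sign.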
